A study of Mus musculus with 2 samples.

Results

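The 7 genes described here are *Retnlg*, *Mmp8*, *Mmp9*, *Cxcr2*, *Il1b*, *Csf3r* and *Cyp4f18*, genes of late neutrophil maturation and egress, taken by name from the 7915 genes listed in either of 2 Sc-RNA-Seq libraries of bone marrow cells (BMCs). All 7 were among the 7181 genes listed for the WT and 6 among the 6735 listed for the Cko, in which *Csf3r* was not listed. A gene missing from a list was not taken as 0, and *Csf3r* is therefore described in the WT alone. Each library came from the bone marrow of 1 C57BL6/J mouse at postnatal day 21, after lysis of red blood cells. The Cko carried alleles of S1P (site-1 protease, the gene *Mbtps1*) with a floxed exon 2 and the *Osx1-GFP::Cre* transgene, which drives Cre from the osterix promoter, known from bone-forming cells. The paper proposes that this transgene is also active in blood-forming cells. It reports loss of exon 2 in sorted neutrophils of the Cko mice that it examined for this. The WT had the floxed alleles without Cre, by the study's usage, and no mouse with Cre alone is analysed here. Since each genotype is a single mouse and a single library, no test was made. All intervals are 95% intervals of counting error only, and a difference between genotypes cannot be told apart from one between mice or library preparations.

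The marrow makes neutrophils from progenitors that first fill primary granules with enzymes such as myeloperoxidase and elastase, then fill secondary granules with proteins such as lactoferrin and stop dividing. Late in this course the cells load gelatinase granules, gain chemokine receptors and leave for the blood. *Retnlg* encodes resistin-like gamma, a small secreted protein of myeloid cells, *Mmp8* the neutrophil collagenase and *Mmp9* a gelatinase stored in granules. *Cxcr2* encodes a receptor for neutrophil-attracting chemokines that mobilizes neutrophils from the marrow, and *Csf3r* the receptor for granulocyte colony-stimulating factor, which drives their production and release. *Il1b* encodes the inflammatory cytokine interleukin 1 beta, and *Cyp4f18* a cytochrome P450 that inactivates leukotriene B4, a lipid attractant of neutrophils.

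By the GENCODE annotation of GRCm38, *Retnlg* spans chr16:48872621-48874496 and *Mmp8* chr9:7558456-7568485, both on the + strand. *Mmp9* spans chr2:164940780-164955850 on the + strand and *Il1b* chr2:129364570-129371139 on the − strand of the same chromosome. *Cxcr2* lies at chr1:74153989-74161246 and *Csf3r* at chr4:126024550-126044440, both on the + strand, and *Cyp4f18* at chr8:71988482-72009626 on the − strand. Promoters of 300 bases (250 before and 50 after the start site) came from RefSeq (GRCm38.p6) for 6 of the 7 genes, all but *Mmp9*. They were searched on both strands for TTGCNNAA, the core of sites for CCAAT/enhancer-binding proteins, and for GAGGAA, an ETS core of the kind that PU.1 binds, since both factor families act in myeloid cells. The first core stood in 2 of the 6 promoters, those of *Mmp8* and *Retnlg*, and in 10.8% of all 32851 promoters of this length. The second stood in 4 of the 6, those of *Cxcr2*, *Csf3r*, *Cyp4f18* and *Mmp8*, and in 28.3% of all. No match of one core overlapped a match of the other in the 3 promoters printed here. The promoters of *Retnlg*, of *Mmp8*, the gene whose level was most like that of *Retnlg*, and of *Cxcr2*, the chemokine receptor, are shown 5′ to 3′ on the gene's strand with matches to either core in capitals.
*Retnlg*, chr16:48872358-48872657, + strand: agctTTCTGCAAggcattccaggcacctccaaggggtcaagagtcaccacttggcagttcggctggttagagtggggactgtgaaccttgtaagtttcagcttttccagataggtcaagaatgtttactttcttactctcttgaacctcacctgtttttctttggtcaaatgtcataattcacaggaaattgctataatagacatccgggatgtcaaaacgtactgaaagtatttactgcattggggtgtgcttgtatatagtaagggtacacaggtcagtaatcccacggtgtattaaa
*Mmp8*, chr9:7558179-7558478, + strand: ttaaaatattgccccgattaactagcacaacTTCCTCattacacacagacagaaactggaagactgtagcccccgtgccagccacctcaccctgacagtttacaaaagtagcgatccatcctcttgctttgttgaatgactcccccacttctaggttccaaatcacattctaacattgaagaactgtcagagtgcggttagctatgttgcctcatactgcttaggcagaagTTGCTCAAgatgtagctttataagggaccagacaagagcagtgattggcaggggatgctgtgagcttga
*Cxcr2*, chr1:74153744-74154043, + strand: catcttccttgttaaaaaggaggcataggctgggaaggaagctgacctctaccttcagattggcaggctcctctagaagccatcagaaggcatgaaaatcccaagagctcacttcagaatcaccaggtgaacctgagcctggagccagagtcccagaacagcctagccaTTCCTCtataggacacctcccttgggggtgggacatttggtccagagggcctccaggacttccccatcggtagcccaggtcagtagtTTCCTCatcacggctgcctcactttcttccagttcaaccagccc
In *Mmp8* the match to the first core lay 19 bases before the start site and that to the second 219 bases before it. In *Retnlg* the match to the first core lay 246 bases before the start site, and in *Cxcr2* the second core matched 81 bases before and 7 bases after it. A match describes these letters only, and no binding was measured.

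The WT library held 56382459 UMIs (single counted RNA molecules) and 6271 cells with at least 200 genes, and the Cko library 34447224 UMIs and 3662 such cells. The median was 6977 UMIs per cell in the WT and 7440 in the Cko, the lowest was 2924 and 3162 UMIs, and 28 barcodes were shared between the libraries. *Mbtps1* stood at 31.9 CPM (UMIs per 1000000 UMIs of the same cells) in the WT and 31.1 CPM in the Cko, which does not check the deletion, since the counts come from the 3′ end and not from exon 2.

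Neutrophils of both libraries were clustered together, without the 7 genes and the *Stfa* genes, and separated mostly by the cell cycle. Cells led by the replication genes *Ccne2*, *Gins2* and *Mcm6* (99 WT and 124 Cko cells) are called replicating. Cells led by the mitosis genes *Ube2c*, *Cenpf* and *Ccnb1* (362 and 507 cells) met the fixed markers of early immature neutrophils and are called dividing. They met these with 8 raised markers, 1 of them among the 25 leading genes. Cells led by *S100a6*, *Thbs1* and *Slfn1* (182 and 553 cells) reached no stage name by the fixed markers and are called late. The neutrophil surface marker *Ly6g* stood at 103 and 133 CPM (WT and Cko) in replicating, 253 and 290 CPM in dividing and 1031 and 1108 CPM in late cells. The immature marker *Fcnb* ran the other way, from 2331 and 2065 CPM through 1711 and 1367 CPM to 679 and 389 CPM. The remaining 49 WT and 35 Cko cells also carried the B cell genes *Vpreb3*, *Ebf1* and *Igkc* and are given apart.

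Across neutrophil stages, *Retnlg*, *Mmp8*, *Mmp9*, *Cxcr2* and *Cyp4f18* were all higher in late than in dividing cells, in each library. At least 2-fold higher were 5 of the 7 genes in the WT and all 6 listed genes in the Cko, against 2.46% of 2320 genes with at least 100 UMIs in the WT and 4.17% of 3597 in the Cko. The median log2 difference over all genes was -0.31 in the WT and -0.34 in the Cko. Of the members, 4 in the WT and 5 in the Cko had at least 100 UMIs in these cells, and all of these passed, whereas *Cyp4f18* in the WT and *Il1b* in the Cko passed with fewer UMIs than the genes they are set against. The 7 genes were picked as late genes, so this count describes them and does not test them.

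*Retnlg*, the secreted protein gene, held 117 CPM (93.4 to 145) in replicating cells of the WT and 322 CPM (290 to 356) in those of the Cko. Dividing cells held 168 CPM (153 to 185) and 399 CPM (381 to 418), and late cells 2713 CPM (2600 to 2829) and 6826 CPM (6727 to 6926). The late cells stood 16.1-fold (14.5 to 17.9) above the dividing cells in the WT and 17.1-fold (16.3 to 17.98) in the Cko. B cell-like cells led by *Igll1*, which should lack the gene, held 112 and 136 CPM, but 8 of their 773 WT barcodes had at least 20 *Retnlg* UMIs each and held 417 of 605 UMIs, and 6 of 543 Cko barcodes, 4 of them called doublets, held 340 of 676. The other barcodes of this class stood at 35.3 CPM (30.5 to 40.8) in the WT and 68.6 CPM (61.5 to 76.4) in the Cko. Early neutrophils were uneven too. Among dividing cells 5 of 362 WT barcodes held 270 of 449 *Retnlg* UMIs and 13 of 507 Cko barcodes held 1178 of 1811, and the others stood at 68.04 CPM (58.4 to 78.8) and 144 CPM (132 to 155). After each cell was thinned to 3000 UMIs, a *Retnlg* UMI was found in 8.93% (7.01 to 11.2) of the *Igll1*-led cells of the WT and 17.1% (14.1 to 20.6) of those of the Cko, in 21.2% (13.6 to 30.6) and 28.2% (20.5 to 37.01) of replicating cells and in 18.2% (14.4 to 22.6) and 31.8% (27.7 to 36) of dividing cells.

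*Mmp8*, the collagenase gene, had 1 UMI in all 99 replicating WT cells, 1.41 CPM (0.0358 to 7.87), and 25 UMIs in the 124 Cko cells, 21.1 CPM (13.7 to 31.2). Dividing cells had 18.01 CPM (13.3 to 23.9) in the WT and 78.2 CPM (70.2 to 86.7) in the Cko, and late cells 500 CPM (452 to 551) and 1144 CPM (1103 to 1185). The late cells stood 27.7-fold (20.5 to 38.2) above the dividing cells in the WT and 14.6-fold (13.1 to 16.4) in the Cko. In the WT this step was steeper for *Mmp8* than for *Retnlg*, with intervals apart, but with 6 clusters the order turned round, at 6.98-fold (4.001 to 13.2) for *Mmp8* and 12.02-fold (9.66 to 15.1) for *Retnlg* between the 2 latest clusters, with overlapping intervals. In the Cko the intervals of the 2 genes overlapped.

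*Mmp9*, the gelatinase gene, started earlier. Immature neutrophil-like cells led by *Chil3*, *Ngp* and *Camp* stood 11.3-fold (7.71 to 16.9) above progenitor-like cells led by *Ctsg*, *Mpo* and *Elane* in the WT and 11.7-fold (9.12 to 15.3) in the Cko. It had 15.5 CPM (7.76 to 27.8) and 25.4 CPM (17.1 to 36.2) in replicating cells, 53.7 CPM (45.2 to 63.2) and 117 CPM (107 to 127) in dividing cells, and 286 CPM (250 to 325) and 598 CPM (569 to 628) in late cells. The step from dividing to late cells was 5.32-fold (4.30 to 6.60) in the WT and 5.12-fold (4.64 to 5.66) in the Cko. For *Retnlg* the step from progenitor-like to immature cells was 1.47-fold (1.32 to 1.63) and 2.01-fold (1.88 to 2.15), and for *Mmp8* it was 1.30-fold (0.912 to 1.85) and 3.78-fold (3.11 to 4.62). Among progenitor-like barcodes, 10 of 696 WT and 12 of 585 Cko held 636 of 929 and 1026 of 1600 *Retnlg* UMIs. Barcodes with fewer than 20 *Retnlg* UMIs stood at 35.5 and 66.65 CPM in progenitor-like and 68.1 and 136 CPM in immature cells. Over all barcodes of each library, the interval of *Mmp9* lay above those of *Retnlg* and *Mmp8* at this first step and below them at the step into late cells.

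*Cxcr2*, the chemokine receptor gene, was 4.87-fold (3.41 to 7.03) higher in immature than in progenitor-like cells of the WT and 5.56-fold (4.16 to 7.52) in the Cko. Replicating cells held 22.6 CPM (12.9 to 36.7) in the WT and 27.9 CPM (19.2 to 39.2) in the Cko, and dividing cells 27.4 CPM (21.5 to 34.5) and 41.6 CPM (35.9 to 47.99). Late cells held 82.8 CPM (64.2 to 105) and 119 CPM (107 to 133), 3.02-fold (2.14 to 4.27) and 2.87-fold (2.39 to 3.45) above the dividing cells. The receptor was already above the 1.85 and 3.03 CPM of the *Igll1*-led B cell-like cells in replicating and dividing cells.

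*Csf3r*, the other receptor gene, was nearly level in the WT. It had 29.8 CPM (26.2 to 33.7) in progenitor-like cells, 19.8 CPM (10.8 to 33.2) in replicating, 24.4 CPM (18.8 to 31.1) in dividing and 33.4 CPM (22 to 48.6) in late cells, all with overlapping intervals. The ratio of late to dividing cells was 1.37 (0.840 to 2.17), which held 1.

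*Cyp4f18*, the leukotriene B4 enzyme gene, was counted with few UMIs. The WT had 1.88 CPM (0.609 to 4.38) in dividing and 12.4 CPM (5.93 to 22.7) in late cells, from 5 and 10 UMIs, and the Cko 6.61 CPM (4.46 to 9.43) and 51.3 CPM (43.04 to 60.6), from 30 and 137 UMIs. The late cells stood 6.59-fold (2.05 to 24.6) higher in the WT and 7.76-fold (5.20 to 11.9) in the Cko.

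*Il1b*, the cytokine gene, had 14 UMIs in dividing and 0 in late cells of the WT, where a count of 0 allows up to 3.71 CPM (3 counts). The Cko had 13 UMIs in dividing and 21 in late cells, a step of 2.75-fold (1.31 to 5.97). Of the 21 UMIs of late Cko cells, 18 lay in the mature-like cells described next.

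**Figure D1:**
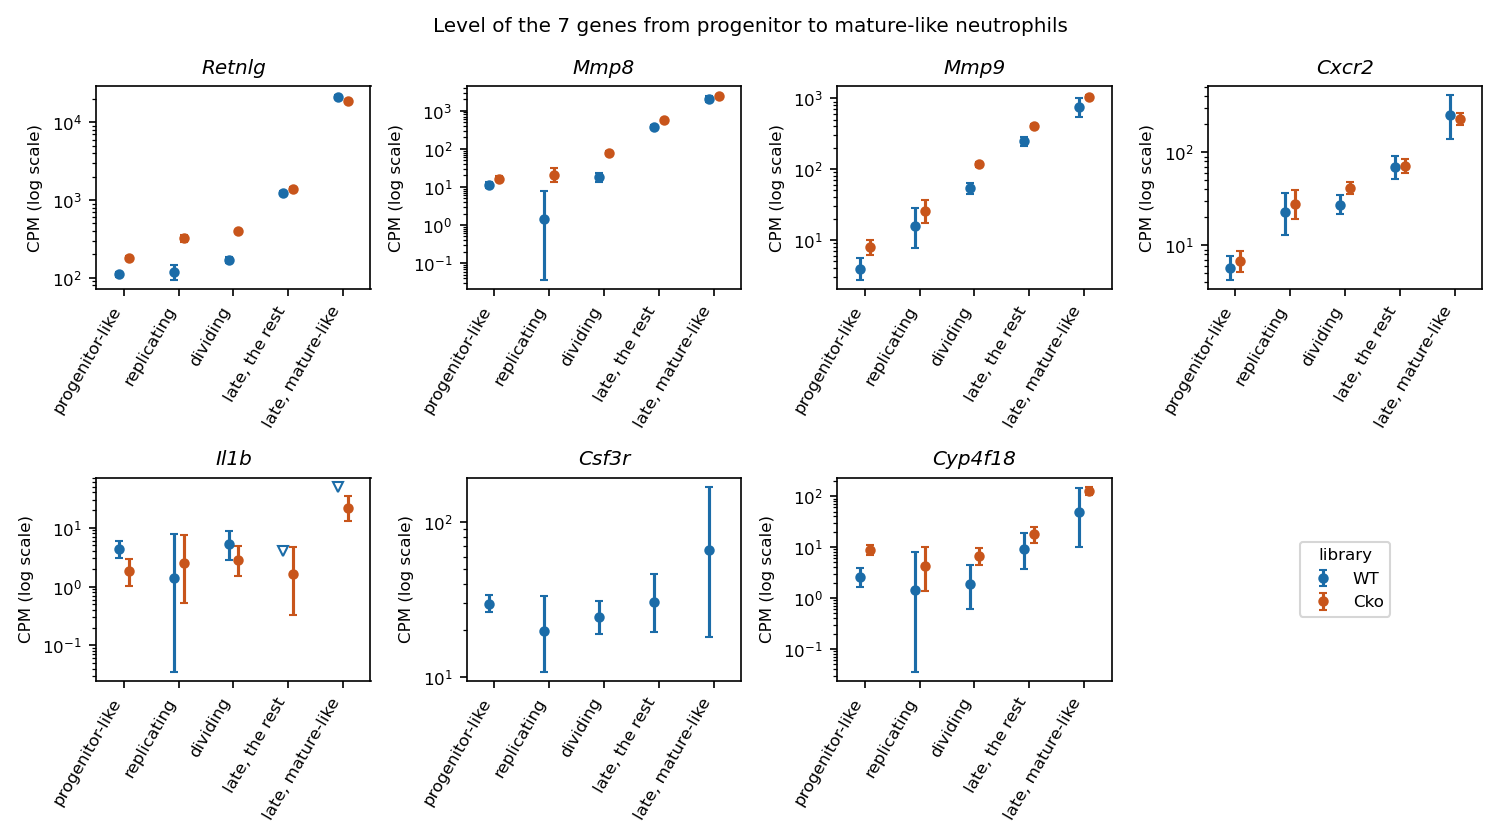
CPM of each gene (log scale, 1 panel per gene, with separate axes) in progenitor-like, replicating and dividing cells, the mature-like cells and the rest of the late cells, for the WT and the Cko library. Bars are exact Poisson 95% intervals and open triangles the level of 3 counts where no UMI was counted; *Retnlg* goes from 168 and 399 CPM in dividing cells to 21062 and 19022 CPM in mature-like cells, whereas *Csf3r*, listed in the WT alone, stays nearly level up to the late cells.

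When the neutrophils were divided into 6 clusters, the late cells split further. A cluster led by *Ccl6*, *S100a6* and *Ptplad2* met the fixed markers of mature neutrophils and held 16 WT and 193 Cko cells. The name rests on 6 raised markers, 2 of them among the 25 leading genes. These cells still held the granule genes *Camp*, at 42572 and 41383 CPM in the WT and Cko, and *Ngp*, at 47083 and 51114 CPM. A cluster led by *AA467197*, *Thbs1* and *Cd3d*, with *Ly6g* next, held 13 WT and 354 Cko cells, and a cluster led by hemoglobin genes held 153 WT and 6 Cko cells. Hemoglobin genes had 19513 and 1463 CPM in late WT and Cko cells, and the part of red-cell RNA in how these cells separated was not tested. A hemoglobin share of 1% or more was found in 7 of the 153 WT cells, and without all such cells the late Cko/WT ratio of *Retnlg* was 2.32.

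The highest levels were in the mature-like cells. *Retnlg* reached 21062 CPM (19919 to 22253) in the 16 WT cells and 19022 CPM (18725 to 19322) in the 193 Cko cells. *Mmp8* reached 1990 CPM (1650 to 2380) and 2437 CPM (2332 to 2546), and *Mmp9* 746 CPM (544 to 999) and 1031 CPM (963 to 1103). *Cxcr2* reached 248.8 CPM (139 to 410) and 227 CPM (196 to 262). In these 4 genes the mature-like cells of both libraries stood above the late cells as a whole. *Cyp4f18* had 49.8 CPM (10.3 to 145) from 3 UMIs in the WT and 126 CPM (103 to 153) in the Cko, and *Csf3r* 66.3 CPM (18.1 to 170) from 4 UMIs in the WT. Compared with the *AA467197*-led cells, the mature-like Cko cells were 13.2-fold (12.7 to 13.8) higher for *Retnlg*, 7.10-fold (4.74 to 10.9) for *Cyp4f18*, 4.22-fold (3.92 to 4.56) for *Mmp8*, 3.12-fold (2.48 to 3.93) for *Cxcr2* and 2.48-fold (2.25 to 2.74) for *Mmp9*. Among *Retnlg*, *Mmp8* and *Mmp9* the order of this last step was the reverse of that between progenitor-like and immature Cko cells.

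Other genes of these pathways came from fixed lists, and those with at least 100 UMIs were read. Of the genes of chemokine egress and retention, 0 of 3 in the WT and 1 of 5 in the Cko were at least 2-fold higher in late than in dividing cells, where 2.46% and 4.17% of all genes were. The 1 gene was the selectin ligand gene *Selplg*, with 18.9 and 65.1 CPM in dividing and late Cko cells. *Cxcr4*, whose product holds neutrophils in the marrow, stood at 31.5 and 28.4 CPM in dividing and late WT cells and at 35.9 and 36.3 CPM in the Cko. Of the granule genes, 1 of 7 in the WT and 3 of 9 in the Cko were higher: the formyl peptide receptor gene *Fpr2* in both, from 84.4 to 265 CPM in the WT and from 164 to 427 CPM in the Cko, and *Fpr1* and *Timp2* in the Cko. Of the interleukin 1 genes, 0 of 1 in the WT and 2 of 3 in the Cko were higher, the decoy receptor gene *Il1r2* and the receptor antagonist gene *Il1rn*, the latter from 5.29 to 31.4 CPM. These are not rises of the Cko alone. *Fpr1* and *Il1r2* were not listed in the WT. *Timp2* and *Il1rn* fell under the limit of 100 UMIs there. In the WT *Timp2* went from 11.6 to 60.6 CPM (31 and 49 UMIs) and *Il1rn* from 5.25 to 14.8 CPM (14 and 12 UMIs). Of the genes of granulocyte colony-stimulating factor signalling 0 of 6 in the WT and 0 of 7 in the Cko were higher, and of the leukotriene B4 genes 0 of 4 in either library. In the other direction 1 gene of the 5 lists passed in each library, against 17.3% of all genes in the WT and 21.3% in the Cko. Both were transcription factor genes: *Cebpb*, from 178 to 63.1 CPM in the WT, and *Gfi1*, from 19.6 to 5.61 CPM in the Cko.

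Between genotypes, late cells of the Cko held more of most of the genes. *Retnlg* was 2.52-fold (2.41 to 2.63) higher in the Cko, *Mmp8* 2.29-fold (2.06 to 2.55), *Mmp9* 2.10-fold (1.82 to 2.42), *Cyp4f18* 4.15-fold (2.19 to 8.84) and *Cxcr2* 1.44-fold (1.10 to 1.91). *Il1b*, with 0 UMIs in late WT cells and 21 in the Cko, was at least 2.12-fold higher against 3 counts in the WT cells, the limit given above. Thus 5 of the 6 genes were at least 1.5-fold higher, against 7.67% of 1930 genes, and 0 at least 1.5-fold lower, against 5.6%. Of the 5 with at least 100 UMIs, as in that background, 4 passed.

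In dividing cells, *Mmp8* was 4.34-fold (3.20 to 5.995) higher in the Cko, *Cyp4f18* 3.52-fold (1.35 to 11.6), *Retnlg* 2.37-fold (2.13 to 2.63), *Mmp9* 2.18-fold (1.81 to 2.64) and *Cxcr2* 1.52-fold (1.15 to 2.02). All 5 were at least 1.5-fold higher, against 4.21% of 3611 genes, of which *Cyp4f18*, with fewer than 100 UMIs, would not have been one. *Il1b*, also below 100 UMIs, with a ratio of 0.545 (0.236 to 1.25), was the 1 gene as much lower, against 2.19%, and its interval held 1. The *Igll1*-led B cell-like cells were also higher in the Cko for *Retnlg* and *Mmp8*. Their Cko/WT ratio was 1.22 (1.09 to 1.36) for *Retnlg* over all barcodes and 1.94 (1.62 to 2.33) over those with fewer than 20 *Retnlg* UMIs, where dividing cells had 2.11 (1.78 to 2.50), with overlapping intervals. For *Mmp8* it was 2.001 (1.27 to 3.21), at 5.75 and 11.5 CPM. For *Mmp9* it was 1.55 (0.829 to 2.94), for *Cxcr2* 1.63 (0.686 to 4.06) and for *Cyp4f18* 1.81 (0.597 to 6.07). For *Il1b* it was 0.544 (0.0881 to 2.55), and the intervals of these last genes held 1. The part of this background in the ratios of dividing cells was not tested.

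The late cells of the libraries differed in how many were mature-like. These made up 8.79% (5.11 to 13.9) of the late cells of the WT, 16 of 182, and 34.9% (30.9 to 39.0) of those of the Cko, 193 of 553. In the same division 153 of the 182 late WT cells (84.1%) were hemoglobin-led, against 6 of the 553 Cko cells (1.09%). After thinning, 37 of these 153 cells had at least 3 of the 6 genes listed in both libraries, as did 12 mature-like WT cells. Whether hemoglobin RNA kept WT cells out of the mature-like cluster was not tested. Within the mature-like cells the Cko/WT ratio was 0.903 (0.853 to 0.957) for *Retnlg*, 1.23 (1.02 to 1.49) for *Mmp8*, 1.38 (1.02 to 1.91) for *Mmp9*, 0.914 (0.540 to 1.67) for *Cxcr2* and 2.54 (0.846 to 12.5) for *Cyp4f18*. Of these 5 genes 1, *Cyp4f18*, passed 1.5-fold, with an interval that held 1, against 14.2% of 688 genes, and 0 were as much lower, against 7.99%. The rest of the late cells came from different clusters in the 2 libraries, since 153 of the 166 WT cells were of the hemoglobin-led and 354 of the 360 Cko cells of the *AA467197*-led cluster. Between these the ratio was 1.14 (1.05 to 1.23) for *Retnlg*, 1.498 (1.31 to 1.71) for *Mmp8*, 1.63 (1.39 to 1.93) for *Mmp9*, 1.03 (0.740 to 1.45) for *Cxcr2* and 1.91 (0.830 to 5.11) for *Cyp4f18*. The ratio of 2.52 for *Retnlg* over all late cells stood beside these 2 values, of which the first rests on 16 WT cells and the second sets unlike clusters side by side. For *Mmp8* and *Mmp9* the Cko stayed higher in both portions, by less than over all late cells. Markers outside the 7 genes differed too: among late cells *Fcnb* stood at 679 and 389 CPM in the WT and Cko, and *Ccl6*, a gene of mature neutrophils, at 17.3 and 92.8 CPM.

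**Figure D2:**
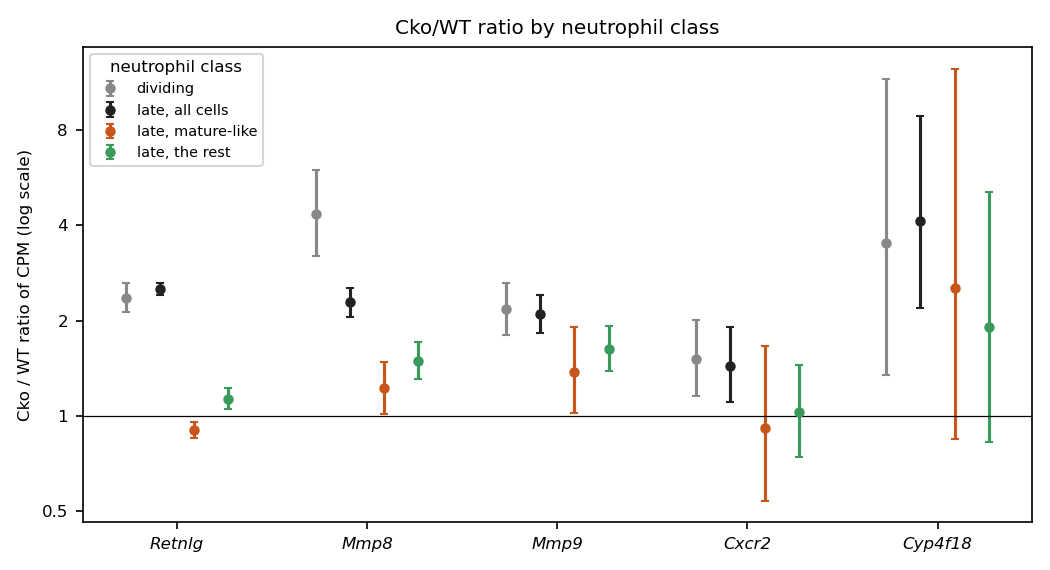
Cko/WT ratio of CPM (log scale) for *Retnlg*, *Mmp8*, *Mmp9*, *Cxcr2* and *Cyp4f18* in dividing cells, all late cells, mature-like cells and the rest of the late cells; bars are exact conditional 95% intervals of counting error and the line marks equal levels. *Retnlg* lies at 2.52 over all late cells and at 0.903 in the mature-like cells.

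Of the related genes in late cells, 1 of 4 of chemokine egress (*Selplg*, 39.6 and 65.1 CPM in WT and Cko), 1 of 8 of granules (*Fpr2*), 0 of 1 of interleukin 1, 2 of 6 of granulocyte colony-stimulating factor signalling (*Stat3* and *Cebpb*) and 1 of 4 of leukotriene B4 were at least 1.5-fold higher in the Cko, against 7.67% of all genes, and 0 were as much lower, against 5.6%. The last was *Alox5ap*, at 1078 and 1632 CPM, whose product serves 5-lipoxygenase at the start of leukotriene synthesis. In the mature-like cells *Alox5ap* was the 1 gene of the lists that passed, at 1310 and 1977 CPM, against 14.2% of all genes. There *Stat3* had 49.8 and 46.2 CPM, from 3 WT UMIs, *Fpr2* 415 and 466 CPM, and *Selplg*, higher in the WT, 182 and 136 CPM, from 11 WT UMIs.

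Single cells differed widely. A late WT cell held a median of 1 *Retnlg* UMI, with 34.9 at the 90th percentile and 217 at most, and a late Cko cell a median of 5, with 117 at the 90th percentile and 491 at most. In mature-like cells the medians were 70.5 UMIs in the WT and 46 in the Cko. After thinning, 52.8% (45.2 to 60.2) of late WT and 75.95% (72.2 to 79.5) of late Cko cells had a *Retnlg* UMI, and before thinning 56.6% and 84.99%. The thinned shares were 34.1% and 66.4% for *Mmp8*, 48.9% and 72.9% for *Mmp9*, 21.4% and 29.3% for *Cxcr2* and 2.75% and 11.8% for *Cyp4f18*. *Igll1*-led B cell-like cells had the shares given above for *Retnlg* and at most 2.39% for any other of the genes, with median depths of 5525 and 7186 UMIs against 3874 and 4473 UMIs in late neutrophils.

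The genes were found together. Of the 6 genes listed in both libraries, at least 3 had a UMI in 28.0% of late WT and 58.2% of late Cko cells, against 1.93% and 6.31% of dividing cells. In mature-like cells these were 12 of 16 cells (75.0%) in the WT and 185 of 193 (95.8%) in the Cko. Other late cells held at least 3 genes too, 37 of the 153 hemoglobin-led WT cells (24.2%) among them. In the *AA467197*-led cluster these were 2 of 13 WT cells (15.4%) and 136 of 354 Cko cells (38.4%). Over late cells, Spearman's rho of the level per cell with that of *Retnlg* was 0.60 in the WT and 0.69 in the Cko for *Mmp8*, 0.47 and 0.59 for *Mmp9*, 0.30 and 0.34 for *Cyp4f18*, and 0.23 and 0.27 for *Cxcr2*. These values describe 182 and 553 cells that share a library and differ in depth. In dividing cells rho with *Mmp8* was 0.17 and 0.25, where most cells had 0 *Mmp8* UMIs.

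**Figure D3:**
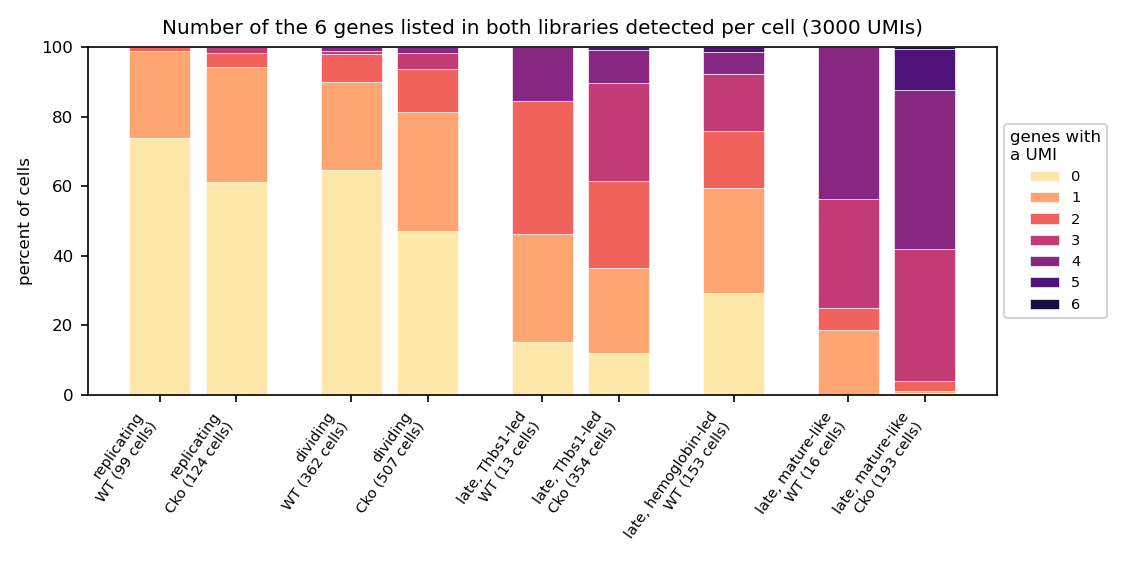
Percent of cells (vertical axis) with 0 to 6 of the 6 genes listed in both libraries, after each cell was thinned to 3000 UMIs, by neutrophil class and library. At least 3 of the genes are found in 75.0% of the 16 mature-like WT and 95.8% of the 193 mature-like Cko cells; the 6 Cko cells of the hemoglobin-led class are not drawn.

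Across all cell types, a division into 13 clusters was used, in which monocyte-like and progenitor-like cells are separate. It was chosen after the data were seen. Among classes with at least 50 cells, late neutrophil-like cells led by *Ly6g* (169 WT and 547 Cko cells) had the highest thinned share for *Retnlg*, *Mmp8*, *Mmp9* and *Cxcr2* in both libraries and for *Csf3r* in the WT.

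*Mmp8* was also counted in monocyte-like cells led by *Fn1*, *Wfdc17* and *S100a4* (383 WT and 608 Cko cells), the marrow precursors of blood monocytes. They held 100 CPM (88.2 to 114) in the WT and 124 CPM (113 to 135) in the Cko, and a UMI in 22.4% (18.4 to 26.97) and 30.3% (26.6 to 34.1) of thinned cells. The *Igll1*-led B cell-like cells had 1.29% and 2.39%, at the median depths given above against 5501 and 5444 UMIs in monocyte-like cells. For *Retnlg* itself the monocyte-like cells of the WT had a higher CPM than the *Igll1*-led cells, 178 against 112, but a lower thinned share, 7.31% against 8.93%, so no order is read from it. In the monocyte-like cells 5 of 383 WT barcodes held 336 of 435 *Retnlg* UMIs and 16 of 608 Cko barcodes 1531 of 1890. In contrast, *Mmp9* and *Cxcr2* had at most 14.6 CPM in monocyte-like cells.

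*Cyp4f18* had 14.8 CPM (10.3 to 20.4) in monocyte-like cells of the WT and 14.5 CPM (6.97 to 26.7) in late neutrophils, with overlapping intervals. In the Cko it had 34.1 CPM (28.7 to 40.2) in monocyte-like cells and 53.2 CPM (44.7 to 62.9) in late neutrophils. Progenitor-like cells had 2.62 CPM (1.64 to 3.97) and 8.85 CPM (6.99 to 11.04), and the *Igll1*-led cells 1.11 and 2.02 CPM. The intervals of the WT and the Cko did not overlap in monocyte-like, progenitor-like or late neutrophil-like cells, the Cko being higher in each. It was also higher in immature neutrophil-like cells, at 1.71 and 5.965 CPM, a Cko/WT ratio of 3.497 (1.455 to 10.2). In B cell-like cells led by *Igkc* the gene had 1.91 and 39.2 CPM, from 2 and 19 UMIs, a ratio of 20.5 (4.95 to 181.5). This class also held barcodes rich in *Retnlg*, described below. Per 100 *Retnlg* UMIs it had 0.131 (0.0159 to 0.476) and 0.975 (0.586 to 1.53) *Cyp4f18* UMIs in the WT and Cko. Late neutrophil-like cells had 0.457 (0.219 to 0.842) and 0.749 (0.628 to 0.886). Whether its *Cyp4f18* came from those barcodes was not tested. In *Igll1*-led cells the interval of the ratio held 1, at 1.81 (0.597 to 6.07).

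*Csf3r* in the WT had 34.9 CPM (22.4 to 51.9) in late neutrophils, 29.8 CPM in progenitor-like, 25.8 CPM (19.8 to 33.02) in monocyte-like and 23.6 CPM (18.8 to 29.2) in immature neutrophil-like cells. Neighbours in this order did not differ beyond their intervals. The *Igll1*-led cells had 1.67 CPM (0.763 to 3.17) and erythroid-like cells led by *Gch1* 1.16 CPM (0.530 to 2.20), below all 4 of these classes.

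*Il1b* was scarce, with 135 UMIs in the kept WT and 143 in the kept Cko cells. The most UMIs of the Cko, 56, lay in monocyte-like cells, 13.4 CPM (10.2 to 17.5) against 8 UMIs or 3.28 CPM (1.42 to 6.46) in the WT. The most of the WT, 36 UMIs or 4.29 CPM (3.01 to 5.94), lay in progenitor-like cells, which had 1.81 CPM (1.04 to 2.95) in the Cko. These classes are large, and by level the WT dividing neutrophils, at 5.25 CPM (2.87 to 8.81), and immature neutrophil-like cells, at 4.26 CPM (2.39 to 7.03), overlapped with the progenitor-like cells. In the Cko, erythroid-like cells led by *Acp5* had 9.74 CPM from 16 UMIs, a Cko/WT ratio of 3.81 (1.91 to 7.37). B cell-like cells led by *Igkc* had 10.3 CPM there, from 5 UMIs. Late neutrophil-like cells of the Cko had 8.93 CPM, from 23 UMIs. Among the classes of this division the monocyte-like level of the Cko was thus not far above those of others. The 193 mature-like Cko cells, which are not a class here, held 18 *Il1b* UMIs. Their level stood 13.1-fold (3.83 to 69.5) above that of the *AA467197*-led cells, which had 3 UMIs. The monocyte-like cells are therefore not read as the highest in *Il1b*.

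**Figure D4:**
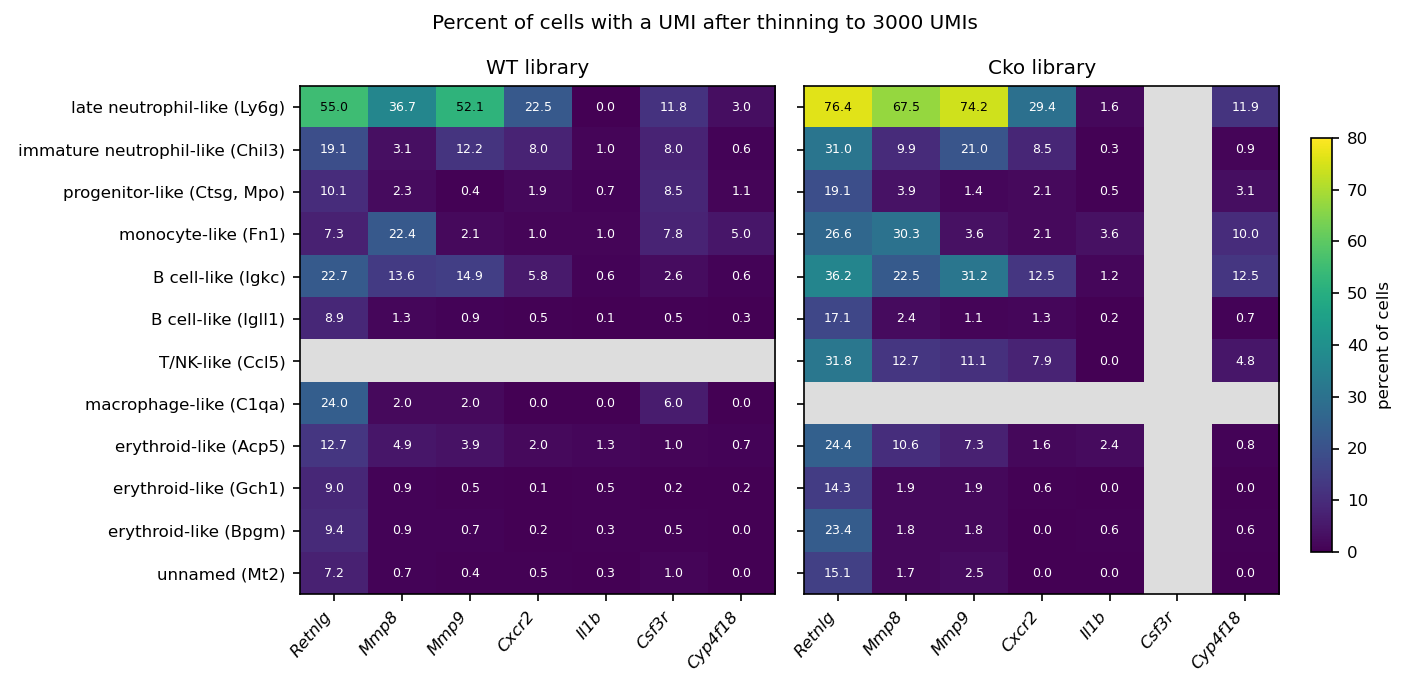
Percent of cells with a UMI of each gene after thinning to 3000 UMIs, by cell class (rows) in the WT and Cko libraries. Grey marks classes under 50 cells and *Csf3r* in the Cko, which did not list it; *Mmp8* reaches 22.4% and 30.3% in monocyte-like cells.

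*Retnlg* was counted in many barcodes outside the neutrophil-like classes of the 13-cluster division. How many depends on the division. In the 10-cluster division, from which the neutrophil stages were taken, the *Chil3*-led class held 1953 WT and 3949 Cko *Retnlg* UMIs. With 13 clusters it held 572 and 2139, and the values below are for 13 clusters. In the WT 26.4% of its 10460 UMIs lay in the 2 neutrophil-like classes, which held 10.3% of the cells, and in the Cko 72.0% of 28362 UMIs in 32.4% of the cells. Of the WT barcodes with at least 20 *Retnlg* UMIs, 35 of 134 (26.1%, 18.9 to 34.4) were in these classes, and of the Cko barcodes 195 of 263 (74.1%, 68.4 to 79.3). The limit of 20 was set after the values were seen. With limits of 10 and 50 UMIs the shares were 26.2% and 27.0% in the WT and 75.5% and 71.6% in the Cko.

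Of these 134 WT barcodes, 39 were in the erythroid-like class led by *Acp5*, where they held 2192 of the 2601 *Retnlg* UMIs of 958 cells, and 38 of the 39 had a hemoglobin share of 1% or more. Another 19 were in the B cell-like class led by *Igkc*, with 1452 of its 1522 *Retnlg* UMIs, and all 19 had at least 3 UMIs of B cell genes. In the Cko, 16 barcodes of the *Igkc*-led class held 1880 of its 1949 *Retnlg* UMIs, and 6 barcodes of the T/NK-like class held 461 of its 490. The levels of *Retnlg* in these classes, 1456 and 4024 CPM in *Igkc*-led cells of the WT and Cko and 1500 CPM in T/NK-like Cko cells, thus came from few barcodes. Scrublet called 2 of the 134 WT and 17 of the 263 Cko barcodes doublets (droplets with more than 1 cell), and whether the others held more than 1 cell was not tested. The 49 WT and 35 Cko neutrophils with B cell genes had *Retnlg* at 4157 and 6684 CPM and *Mmp8* at 514 and 501 CPM.

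**Figure D5:**
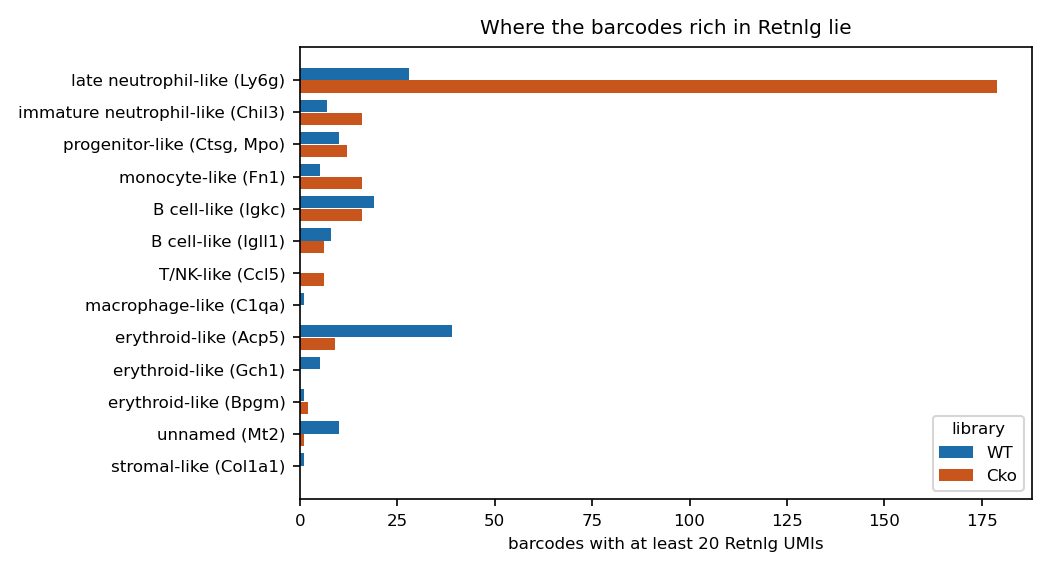
Barcodes with at least 20 *Retnlg* UMIs in each class of the 13-cluster division, for the WT (134 barcodes) and the Cko (263 barcodes). The late neutrophil-like class holds 179 of those of the Cko and 28 of those of the WT, where the erythroid-like class led by *Acp5* holds 39.

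The genes most alike in level were sought by Pearson's r of log2(CPM + 1) among 5870 genes over 22 profiles, the classes with at least 50 cells in each library. The profiles share 2 libraries, so r is a description, and in several classes the level of *Retnlg* came from few barcodes. *Retnlg* was most like *Mmp8* (0.94), *Mmp9* (0.92) and *Asprv1* (0.90), and *Mmp8* after *Retnlg* most like *S100a6* (0.93) and *Slfn1* (0.93). *Mmp9* was most like *Ceacam10* (0.97), *AA467197* (0.95) and *Ly6g* (0.95), and *Cxcr2* most like the complement receptor gene *C5ar1* (0.97), *Chil1* (0.96) and *AA467197* (0.95). *Cyp4f18* was most like *S100a6* (0.92), *Amica1* (0.88) and *Rgs3* (0.87). *Il1b* had its nearest in *Csf2rb2* (0.71), *Prkab2* (0.59) and *Fis1* (0.58). *Csf3r*, over 11 WT profiles and 6760 genes, was most like *Gpr160*, *Igsf6* and *Sgms2* (each 0.99).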

How the data were processed

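The authors deposited raw UMI counts (one table per mouse, a row per gene), made with Cell Ranger on GRCm38 and not normalized; the version is not given in the sources used here. In each table a listed gene has a cell with 4 UMIs or more. The sum row and column were dropped, and 2 rows of *Pde4d* in the WT were summed. Cells with at least 200 genes were kept. Scrublet (scanpy 1.11.5, expected rate 5%) called 127 WT and 51 Cko doublets, which were kept. Seurat 5.3.0 (R 4.3.3) clustered both libraries together on genes listed in both (log-normalization to 10000, 2000 variable genes, 20 components, 20 neighbours, mitochondrial and ribosomal shares regressed out, lowest resolution giving at least 10 clusters). Cells of neutrophil clusters were clustered again, at the lowest resolution giving at least 4. Names came from fixed markers, at least 3 detected. Backgrounds used genes with at least 100 UMIs. Intervals are exact (Poisson for CPM, Clopper-Pearson for shares, conditional binomial for ratios), and the last kind was tried on simulated counts. One planned ranking of cells and 1 gene of the related lists are not reported here. Alternatives were other clusterings, filters, denominators and fold limits. The 7 genes and the lists were chosen with earlier results of these data known. Genes named besides the 7 are the 3 most alike to each, *Mbtps1*, and markers or related genes that a result turns on. Other software was Python 3.11.15 with pandas 2.3.3, scipy 1.17.1, numpy 2.4.6 and, for figures, matplotlib 3.10.9.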

Additional observations from a re-analysis of the deposited data

How the results depend on the processing

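No paired analysis was possible because each genotype had 1 library and no test was made. The counts of genes past the fold limits moved by over 1.5 times in 2 cases. With 6 stage clusters, comparing mature-like cells and, as the earlier stage, the *AA467197*-led cells, 1 and 2 genes were at least 1.5-fold higher in the Cko, in place of 5 and 5. The other 43 counts stayed within 1.5 times. With 6 clusters the log2 Cko/WT ratio was -0.15 for *Retnlg* in mature-like cells, and -0.29 for *Retnlg* and -0.48 for *Cxcr2* in the *AA467197*-led cells. By construction these stages are narrower and hold 16 and 13 WT cells. For *Il1b* the log2 ratio was 0.12 in the earlier stage when each library was clustered on its own, and the cause was not tested. Over the settings reported the Cko/WT ratio in late cells ranged from 0.903 to 3.44 for *Retnlg*, 1.23 to 3.09 for *Mmp8*, 1.38 to 2.48 for *Mmp9*, 0.914 to 2.04 for *Cxcr2* and 2.54 to 5.78 for *Cyp4f18*. In the earlier stage it ranged from 0.819 to 3.02 for *Retnlg*, 2.02 to 5.87 for *Mmp8*, 1.88 to 3.75 for *Mmp9* and 0.716 to 2.31 for *Cxcr2*. With 6 clusters the earlier stage was the *AA467197*-led cells, which gave the low ends for *Retnlg*, *Mmp8* and *Cxcr2* and are not dividing cells. In that split, the cells led by *Ube2c*, *Cenpf* and *Ccnb1* had ratios of 2.457, 4.415 and 1.585 for these genes. The fold of the late over the earlier stage ranged in the WT from 6.82 to 18.96 for *Retnlg*, 6.98 to 33.4 for *Mmp8* and 2.50 to 10.4 for *Mmp9*, and in the Cko from 10.98 to 21.6 for *Retnlg*, 4.23 to 19.97 for *Mmp8*, 2.48 to 7.34 for *Mmp9* and 1.98 to 13.1 for *Il1b*. With 6 clusters this fold sets mature-like against *AA467197*-led cells. It gave the 6.98 of *Mmp8* in the WT and, in the Cko, the 4.23 of *Mmp8*, 2.48 of *Mmp9* and 13.1 of *Il1b*. Depth limits *Il1b* and *Cyp4f18*, and *Mmp8* in replicating cells, which had few UMIs in the WT.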
